A study of Mus musculus with 5 samples.

Results

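Thin limb cells of the mouse kidney were examined in mice whose ureter was blocked on one side (unilateral ureteric obstruction, UUO) and, in one arm, unblocked again. They were chosen by their own RNA counts: a cell was a member if it held at least 3 unique molecular identifiers (UMIs, counts of single captured RNA molecules) of Bst1, Fst, Epha7 and Sptssb together. It also had to hold at most 2 UMIs of Slc12a1, 1 of Slc12a3, 2 of Aqp2, 1 of Atp6v1g3, 1 of Egfl7 and 0 of Ptprc, genes of thick limb, distal, collecting duct, intercalated, endothelial and blood cells. The rule gave 128 of 13823 kept cells, where a cell was kept with 200 or more genes and no more than 50% of its UMIs from mitochondrial genes. The 4 droplet libraries came from C57/BL6 mice of 8 weeks. They were a sham-operated group (day 0), groups at 2 and 7 days of UUO, and a reversed group collected on experimental day 14, when the block had been off for 7 days. Cells of 3 mice were pooled for each, and no time point had a second library, so no test between time points could be made, and every interval below is a 95% interval for counting error only. Live cells had been sorted from kidneys digested on ice, so the shares below also depend on how well each cell type came out of the tissue. A Smart-seq2 sample of 768 wells with all time points mixed was not used here.

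The thin limbs are the narrow stretches of the loop of Henle in the renal medulla, between the proximal straight tubule and the thick ascending limb. The descending thin limb is lined by flat cells that carry the water channel aquaporin 1 and, in short loops, the urea transporter encoded by Slc14a2. The ascending thin limb lets chloride pass and holds back water, and both limbs live in a salty, urea-rich medium that cells meet with organic osmolytes and small heat shock proteins. Obstruction raises pressure in these tubules, and Spp1, Lcn2, Clu and Havcr1 are widely used as marks of tubule injury.

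Members were few in each library, and most numerous on day 2. Sham had 36 among 3933 kept cells (0.915%, exact Clopper-Pearson interval 0.642 to 1.26) and day 2 had 43 among 2207 (1.95%, 1.41 to 2.62). Day 7 had 29 among 4447 (0.652%, 0.437 to 0.935) and the reversed library 20 among 3236 (0.618%, 0.378 to 0.953). Among kept cells without Ptprc, a gene of blood cells, the shares were 0.940%, 2.93%, 1.99% and 0.935% in the same order. The order of sham and day 2 turned over with the mitochondrial limit. With at most 20% mitochondrial UMIs, members were 5.09% of sham cells (3.53 to 7.08) and 2.77% of day 2 cells (2.01 to 3.73), followed by 0.693% and 0.965%. Members themselves had low mitochondrial shares, with medians of 5.28%, 6.40%, 4.83% and 4.64%, while thick ascending limb cells of the same libraries had medians of 36.6%, 21.0%, 9.06% and 20.1%. Of thin and thick limb cells together, members made up 17.2% (12.4 to 23.0), 19.3% (14.3 to 25.1), 24.6% (17.1 to 33.4) and 11.6% (7.21 to 17.3) in the 4 libraries, and the intervals of neighbouring libraries overlapped. All these day 7 shares count 7 members with collagen UMIs, described below, whose markers go against the label. Without them the day 7 share of kept cells was 0.495% (0.310 to 0.748), below the reversed 0.618%.

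**Figure D1:**
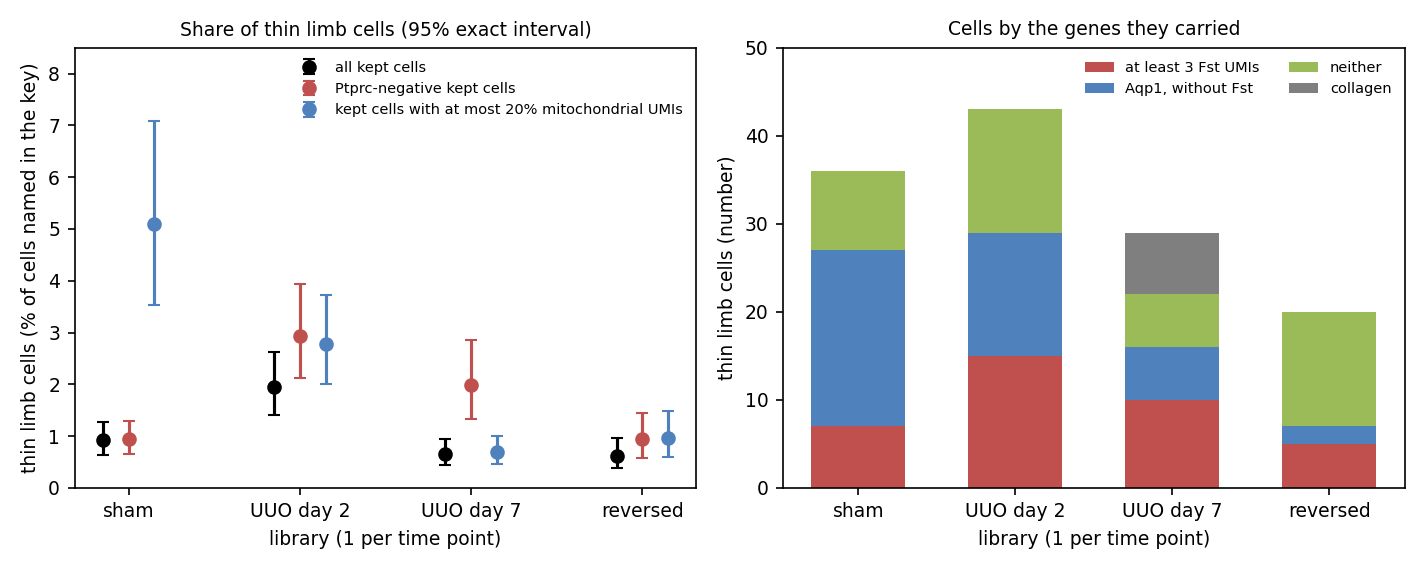
Left: members as a percent of 3 denominators in each library, with exact 95% counting intervals, where the sham share moves from 0.915% of all kept cells to 5.09% of cells with at most 20% mitochondrial UMIs. Right: the number of members in each library, split by Fst, Aqp1 and collagen UMIs, where the 7 collagen cells lie in the day 7 library only.

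The libraries held 5938, 2739, 4504 and 3695 deposited cells with 18649637, 19689924, 30462683 and 22943957 UMIs. The members summed to 173400, 332288, 310780 and 191089 UMIs, with medians per cell of 4371.5, 7303, 7440 and 9664, so sham cells were the shallowest and 1 UMI stood for the largest level there. Between 16 and 39 cell barcodes recurred between pairs of libraries, 0 of them in members.

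Most members held Bst1. On day 7 about as many held Fst, but only with the 7 collagen cells described below, which all held Fst and 0 Bst1. Bst1, an NAD-consuming enzyme on the cell surface (chr5:43818885-43843986, plus strand, GRCm38), was seen in 34, 41, 19 and 15 members of the sham, day 2, day 7 and reversed libraries. Fst, which encodes the activin-binding protein follistatin (chr13:114452290-114458951, minus strand), was seen in 7, 16, 20 and 7. Epha7, a receptor for ephrin ligands (chr4:28813131-28967499, plus strand), was seen in 14, 10, 7 and 10. Sptssb, a small subunit of the enzyme that starts sphingolipid synthesis (chr3:69819542-69859940, minus strand), was seen in only 2, 3, 0 and 1. At the threshold, 5, 5, 4 and 4 members stood at exactly 3 UMIs, and 7, 11, 16 and 10 cells that met every other limit stood just outside at 2. Of those outside cells 6, 6, 7 and 4 held an Epcam UMI, a gene of epithelial cells, and of the cells just inside 5, 4, 2 and 4 did. These values chose the members and are given as a description.

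Summed levels of descending limb genes, mostly of Aqp1 and Cryab, went with the label, but single members did not all do so. Descending limb sums of other cell classes are not given here. The summed level of 8 descending thin limb genes was 13916, 8514, 3641 and 5976 CPM (the gene's UMIs scaled to a common total per library) in sham, day 2, day 7 (without the cells described next) and reversed members, and all 8 genes were detected in every library. Of 6 ascending thin limb genes, Bsnd and Prox1 were at 0 in every library. The 6 ascending genes summed to 392, 430, 197 and 335 CPM in members, below the 696, 681, 590 and 889 CPM of thick ascending limb cells and above the 52.5, 117, 96.5 and 116 CPM of endothelial cells. Members were also above the 313, 269, 266 and 263 CPM of proximal tubule cells in every library but day 7. In each library most of the ascending sum of members came from Cldn4, whose levels are given below. On day 7, 7 of the 29 members held at least 10 UMIs of the fibroblast genes Col1a1, Col1a2, Col3a1 and Dcn, with 0 Bst1 UMIs in all of them. They entered mainly by Fst, and 5 of them also held Wt1, a gene of glomerular cells. These 7 cells contributed 42.9% of the day 7 UMIs, and with them the summed level of 8 stromal genes was 12835 CPM instead of 78.9. Their markers go against the label, so day 7 levels are given below for the other 22 cells.

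Some of the other members also held markers of other cell types. In the reversed library, 4 members held a Wt1 UMI and carried 56 of the 59 Sparc UMIs. Another 4 reversed members held at least 20 UMIs of Umod, the main secreted protein of the thick limb, and carried 80 of the 108 Lcn2 UMIs. On day 2, 1 further member held at least 20 Umod UMIs. Another, with at least 3 Csf1r UMIs and no Epcam or Cryab, carried 62 UMIs of 7 phagocyte markers and 180 of the 261 Cd74 UMIs, and 1 member carried 43 of the 46 Krt19 UMIs and all 36 Krt15 UMIs. Proximal tubule genes, 12 in all, summed to 8449, 2089, 738 and 3339 CPM in members, and to 7792, 2341, 1828 and 4345 CPM in endothelial cells, which should lack them. In members these sums were uneven: 2, 1, 0 and 1 cells held at least 100 such UMIs, and 1 sham member held 498 of the 1465, with 33.0% of its own 6700 UMIs from mitochondrial genes. Without the cells with at least 100, the sham, day 2 and reversed sums were 5218, 1691 and 2569 CPM.

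As a sum over cells, members had high levels of genes that the rule had not used, though not every member held each of them. The lists of 20 genes with the largest ratio of mean CPM, against thick ascending limb cells and against proximal tubule cells, had Aqp1, Cryab, Ankrd1, Tshz2, Ifit3, Ifit3b, Apela, Akr1b3 and Slc4a11 in common beside Fst and Bst1, and each was at least 2-fold higher in 4 of 4 libraries. Aqp1, the water channel of the descending limb, averaged 2508 CPM over the libraries in members, 16.8 CPM in thick ascending limb cells and 115 CPM in proximal tubule cells, and 77 of the 128 members held at least 3 UMIs of it. Cryab, a small heat shock protein abundant in the medulla, averaged 3813, 81.4 and 114 CPM. Apela, the gene of a small peptide hormone, averaged 1334, 70.0 and 6.31 CPM. Ankrd1, a gene switched on in stretched and stressed cells, averaged 791 CPM in members and 1.94 CPM in thick limb cells. Tshz2, a zinc finger transcription factor, averaged 491 CPM against 3.73 in thick limb cells, but endothelial cells held it too, at 180 to 306 CPM. Because the cells were chosen by their RNA, these differences are descriptions and not tests.

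The interferon-induced genes Ifit3 and Ifit3b belonged to this profile, while the related genes Ifit1 and Isg15 did not. Ifit3 stood at 646, 1442, 259 and 194 CPM in members of the sham, day 2, day 7 and reversed libraries, against 1.97 to 41.6 CPM in thick limb cells and 60.2 to 183 CPM in endothelial cells. Ifit3b stood at 542, 819, 175 and 199 CPM. In the same cells Ifit1 was at 11.5, 24.1, 0 and 5.23 CPM and Isg15 at 23.1, 60.2, 56.4 and 0 CPM. Sham and day 2 members thus held Ifit3 and Ifit3b with little Ifit1 or Isg15. The pair are near-identical copies on chromosome 19, so the split of reads between them is uncertain. Thinned to 1000 UMIs per cell, 44.4%, 69.8%, 22.7% and 5.00% of members held an Ifit3 UMI (63.9%, 95.3%, 90.9% and 55.0% before thinning). The thinned shares of endothelial cells were 8.81%, 5.10%, 15.8% and 14.4%, so the thinned reversed share was not above theirs. Whether the endothelial share is background was not tested.

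The stretches upstream of these genes are shown because 3 of the 4 lie side by side and yet their levels in the members differed. They come from RefSeq promoters on GRCm38.p6, with the letters GAAANNGAAA, the core of interferon-response elements, in capitals on either strand.
Ifit3, chr19:34583353-34583436, plus strand: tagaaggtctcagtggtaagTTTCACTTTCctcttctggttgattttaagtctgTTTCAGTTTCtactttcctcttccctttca
Ifit3b, chr19:34607749-34607832, plus strand: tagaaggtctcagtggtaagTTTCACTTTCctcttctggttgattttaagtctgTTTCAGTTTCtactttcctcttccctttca
Ifit1, chr19:34640765-34640833, plus strand: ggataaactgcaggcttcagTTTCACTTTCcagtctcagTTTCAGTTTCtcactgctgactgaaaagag
Isg15, chr4:156200855-156200916, minus strand: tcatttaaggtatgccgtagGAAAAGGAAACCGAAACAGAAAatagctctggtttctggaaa
All read 5′ to 3′ on the gene's strand. Ifit3 and Ifit3b had the same 84 bases, and Ifit1 carried the same pair of 10-letter matches as both. Isg15 had 3 overlapping matches. The letters occurred on either strand in the 250 bases before the start of 978 of 32851 promoters (2.98%), and the match is a description, not a binding site.

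Beside the collagen cells, the members were sorted into 3 kinds by Fst and Aqp1, a split chosen after the cells had been seen. Cells with at least 3 Fst UMIs numbered 7, 15, 10 and 5 in the sham, day 2, day 7 and reversed libraries. Cells with fewer Fst but at least 3 Aqp1 UMIs numbered 20, 14, 6 and 2. Cells with neither numbered 9, 14, 6 and 13, and so were 13 of the 20 reversed members. Of these 13, 8 were the reversed cells with Wt1 or Umod described above, so values of this kind after reversal rest largely on them.

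Some genes were high in Fst cells or in cells with neither Fst nor Aqp1, with so few cells that the values are descriptions. Lypd2, a Ly6-family surface protein, and Car14, a membrane carbonic anhydrase chosen after its values were seen, stood at 2811 and 1550 CPM in sham Fst cells. In the later libraries the Fst cells held 64.3, 79.9 and 154 CPM of Lypd2 and 184, 79.9 and 220 CPM of Car14. Uncx, a homeobox gene also chosen after its values were seen, was detected only in cells with neither Fst nor Aqp1, at 206, 218, 84.1 and 121 CPM. Id3, an inhibitor of basic helix-loop-helix factors, was at 3674, 1390, 210 and 334 CPM in those cells, and between 67.1 and 260 CPM in the other two kinds. Krt19, a keratin, was likewise detected only there, at 0, 372, 273 and 37.9 CPM, the day 2 value resting on the 1 cell named above.

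**Figure D2:**
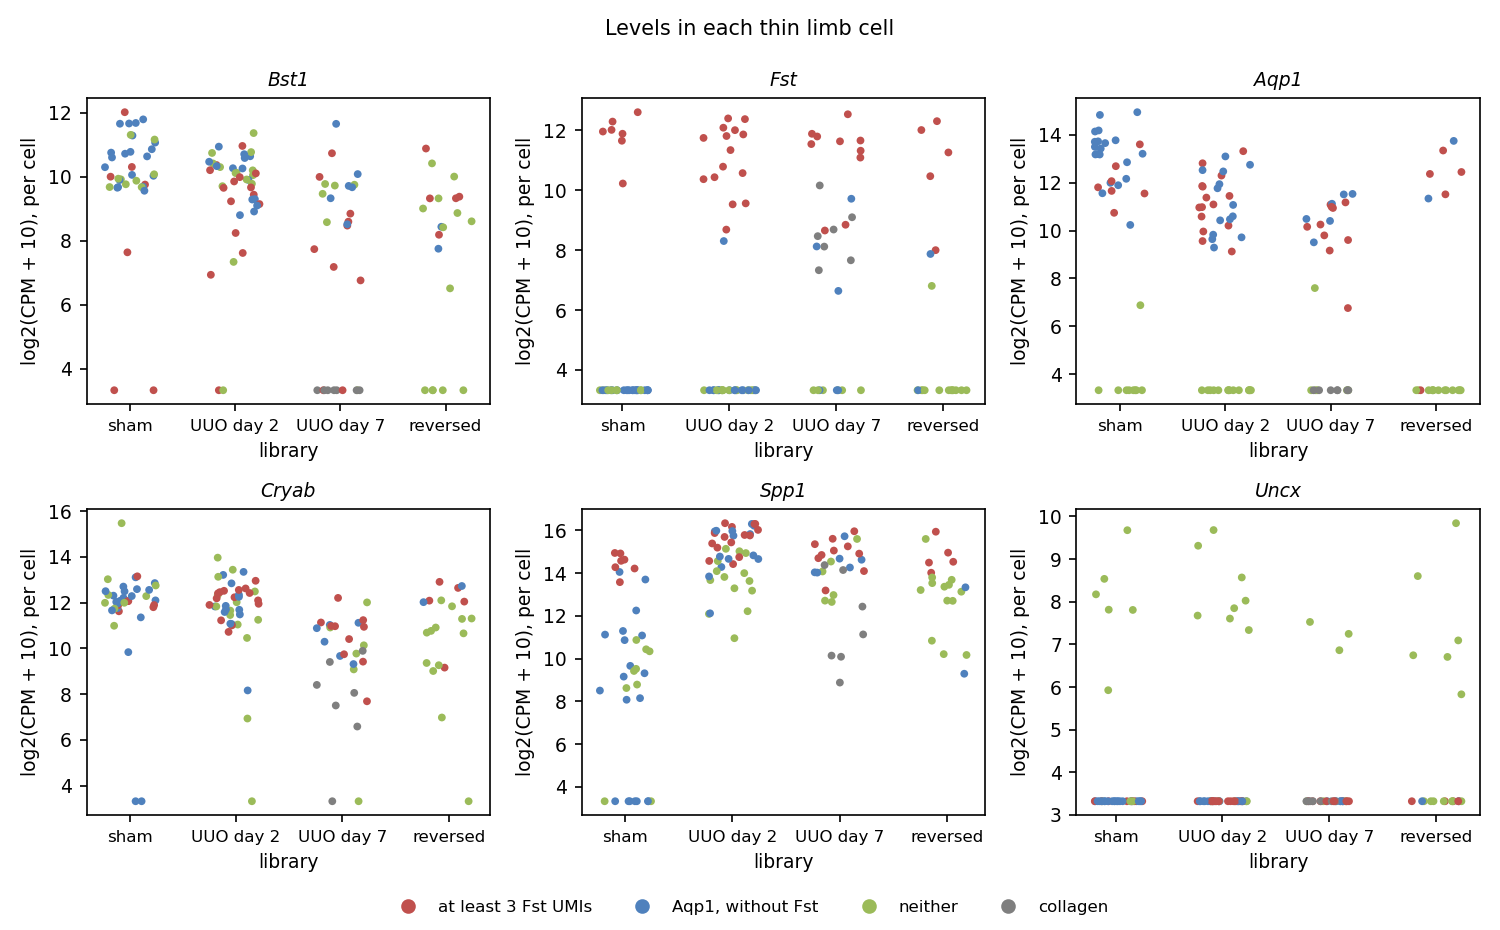
Each dot is 1 of the 128 members chosen by the rule, collagen cells included, as log2(CPM + 10), by library and coloured by kind of cell, for Bst1, Fst, Aqp1, Cryab, Spp1 and Uncx. Spp1 dots lie higher on day 2 and day 7 than in sham, while Aqp1 splits the cells of every library into those with and those without it.

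On day 2, members held less Aqp1, Apela and Lypd2 than in sham and far more Spp1, Lcn2 and Clu. Of 2652 genes with at least 30 UMIs in both libraries together and 50 CPM in the higher one, 145 were at least 2-fold higher on day 2 (5.47%) and 170 at least 2-fold lower (6.41%). This split depended on scaling: with TMM factors, which shifted the median log2 ratio of all genes by 0.31, it was 281 higher and 81 lower, and median-of-ratios factors shifted it by 0.20. All ratios are of CPM + 10 on the log2 scale, so those of low genes come out too small.

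Among the descending limb genes on day 2, 7 of 8 passed these floors, 1 was at least 2-fold higher and 3 were at least 2-fold lower, with a median log2 ratio of −0.28 against −0.05 for all genes tested and of 0.06 with TMM factors. The 3 lower genes were Aqp1, Pax2 and Akr1b3, and the last was no longer past 2-fold without the top cell of each library (−0.13). Aqp1 stood at 5260, 1953, 981 and 1837 CPM in the sham, day 2, day 7 and reversed libraries. The day 2 value was lower than sham by a log2 ratio of −1.42 (−1.57 to −1.28) and the day 7 value lower than day 2 by −0.99 (−1.23 to −0.75). All 3 later libraries lay below sham. Single cells ranged from 0 to 31588 CPM in sham with a median of 4425, and the medians were 1170, 1005 and 0 later. Within Fst cells, a kind not chosen by Aqp1, the levels were 4181, 2948, 1269 and 5748 CPM. Within Fst cells the reversed level of Aqp1 was thus not below sham, on 5 and 7 cells. In endothelial cells, some of which use this channel too, Aqp1 stood at 467, 1027, 196 and 218 CPM.

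Cryab was lowest on day 7, while its order between the other libraries differed with the kind of cell and with 1 sham cell. It stood at 5830, 4815, 1685 and 2920 CPM, with log2 ratios of −0.28 (−0.39 to −0.16) for day 2 against sham, −1.51 (−1.69 to −1.33) for day 7 against day 2, and 0.79 (0.59 to 1.00) for reversed against day 7. In sham 1 cell, of those with neither Fst nor Aqp1, held 281 of the 1011 UMIs. Without the top cell of each library sham stood at 4366 CPM and day 2 at 4517 CPM, so that day 2 was no longer the lower one (log2 ratio 0.049). The log2 ratio of reversed to sham had an interval from −1.15 to −0.84, and was −0.62 without the top cells. Within Fst cells Cryab stood at 3928, 4593, 2029 and 5198 CPM and within Aqp1 cells at 4239, 4554, 1208 and 5073 CPM. The reversed values rest on 5 and 2 cells. In cells with neither it stood at 8420, 5221, 1262 and 1911 CPM, and the sham value was 4720 CPM without the 1 cell.

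Slc14a2, the urea transporter gene of the descending limb, went the other way on day 2. It stood at 17.3, 262, 73.3 and 47.1 CPM, from 3, 87, 13 and 9 UMIs, and was found in 1 of 36 sham and 26 of 43 day 2 members. The log2 ratio for day 2 against sham was 3.32 (2.11 to 4.36) and that for day 7 against day 2 was −1.71 (−2.53 to −0.93). Thick limb and endothelial cells held at most 6.33 CPM of it in any library, so the day 2 level was not shared with them. Levels of Slc14a2 in collecting duct cells are not given here. Sham cells were shallower, and thinned to 1000 UMIs the shares with a Slc14a2 UMI were 0% (upper limit 9.74%), 16.3%, 9.09% and 5.00%.

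Akr1b3, the aldose reductase that makes the osmolyte sorbitol, read 2013, 725, 293 and 497 CPM, but 1 sham cell gave 244 of its 349 UMIs. Without the top cell of each library the sham level was 628 CPM and the log2 ratio for day 2 against sham went from −1.46 to −0.13, and that for reversed against sham from −2.00 to −0.57. Slc6a6, the taurine transporter, differed little between libraries, at 467, 430, 383 and 445 CPM. Of the wider list of 13 osmolyte and osmotic stress genes, 8 passed the floors on day 2 and 3 of them (Hspb1, Clu and Slc14a2) were at least 2-fold higher and 1 (Akr1b3) at least 2-fold lower, with a median of 0.26. Hspb1, another small heat shock protein, stood at 127, 304, 761 and 361 CPM.

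The nephron transcription factors Pax8 and Pax2 stood at 398, 463, 304 and 377 CPM and at 219, 93.3, 67.6 and 157 CPM. Apela stood at 2318, 1104, 930 and 984 CPM, lower on day 2 by a log2 ratio of −1.06 (−1.27 to −0.86) and still lower than sham after reversal by −1.23 (−1.48 to −0.98). Within Fst cells Apela was at 2739, 1800, 1309 and 2731 CPM, and within Aqp1 cells at 3569, 883, 973 and 2609 CPM, the reversed values again resting on 5 and 2 cells. Lypd2 was among the 5 largest decreases on day 2, with 456, 21.1, 45.1 and 36.6 CPM and log2 ratios against sham of −3.91 (−4.72 to −3.05) on day 2 and −3.32 (−4.29 to −2.37) after reversal. Its 79 sham UMIs came from 7 cells.

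Claudins, the proteins that set what passes between tubule cells, differed from one another. Cldn8, a barrier claudin, stood at 773, 220, 67.6 and 162 CPM, with log2 ratios of −1.77 (−2.18 to −1.36) for day 2 against sham and −2.18 (−2.76 to −1.64) for reversed against sham. Cldn4 stood at 271, 361, 124 and 178 CPM. Cldn2, a claudin that passes cations and water, stood at 138, 187, 197 and 120 CPM, and its intervals between neighbouring libraries all included 0. Of 18 tight junction genes 7 passed the floors on day 2, 0 were at least 2-fold higher and 2 (Cldn8 and Tjp1) at least 2-fold lower.

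Of 16 ion and water transport genes 7 passed the floors on day 2, 0 were at least 2-fold higher and 2 at least 2-fold lower, Aqp1 and Fxyd2. Fxyd2, a regulatory subunit of the sodium pump, stood at 4394, 1751, 1268 and 1497 CPM in members and at 1404, 866, 718 and 932 CPM in endothelial cells. Atp1b1, the beta subunit of the pump, stood at 2255, 1327, 1409 and 1617 CPM.

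Injury genes were higher on day 2 in most of the list. Of 17 tubule injury genes 13 passed the floors, 10 were at least 2-fold higher and 0 at least 2-fold lower, with a median log2 ratio of 2.01, also with genes at 0 in sham set to their bound. Spp1, the gene of the secreted protein osteopontin, stood at 5283, 37892, 31417 and 15527 CPM. Every day 2 member held at least 1970 CPM of it, the sham median being 760. The log2 ratios were 2.84 (2.74 to 2.94) for day 2 against sham, −0.27 (−0.32 to −0.22) for day 7 against day 2, −1.02 (−1.08 to −0.95) for reversed against day 7 and 1.55 (1.45 to 1.66) for reversed against sham. Spp1 was higher in each kind of cell on day 2, at 23066 then 54754 CPM in Fst cells, 2706 then 44916 in Aqp1 cells and 970 then 17394 in cells with neither. Thick limb cells held 2541, 62585, 52770 and 15953 CPM and endothelial cells 213, 5857, 8213 and 2746 CPM of Spp1, so it was not particular to the thin limb.

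Lcn2, an iron-carrier-binding protein released by injured tubules, stood at 5.77, 1384, 1150 and 565 CPM. It was found in 1 of 36 sham members and in 28 of 43 on day 2, 14 of 22 on day 7 and 8 of 20 after reversal. The log2 ratio for day 2 against sham was 6.47 (5.04 to 7.11) on 1 sham UMI, and for reversed against sham 5.19 (3.73 to 5.84). Without the 4 Umod-rich reversed cells the reversed level was 179 CPM and that ratio 3.58. On day 2 Lcn2 was at 2447 CPM in Aqp1 cells, 1414 in cells with neither and 377 in Fst cells. Thick limb cells held 10.2, 3055, 2226 and 615 CPM and endothelial cells 0, 442, 390 and 138 CPM of Lcn2. After thinning to 1000 UMIs, 2.78%, 37.2%, 45.5% and 25.0% of members held a Lcn2 UMI (2.78%, 65.1%, 63.6% and 40.0% unthinned), against 0%, 12.1%, 8.60% and 3.68% of endothelial cells.

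Clu, a secreted chaperone, stood at 110, 1189, 1099 and 304 CPM in members and at 90.1, 8351, 3640 and 1258 CPM in thick limb cells. On day 2, 1 cell held 178 of its 395 UMIs, and the level was 671 CPM without it. S100a6, a calcium-binding protein, stood at 1182, 4782, 1742 and 1826 CPM, and its day 2 ratio of 2.01 was 2.76 without the top cell of each library. The actin-binding Tmsb10 stood at 467, 1727, 1296 and 1518 CPM and remained higher than sham after reversal by a log2 ratio of 1.68 (1.32 to 2.05). The keratin Krt8 stood at 156, 364, 141 and 283 CPM. S100a6 and Krt8 thus had their highest library on day 2.

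Havcr1, Vcam1 and Krt19 were at 0 in sham members. Havcr1, the kidney injury molecule 1 gene, stood at 166, 101 and 20.9 CPM in the later libraries and was at least 9.57-fold higher on day 2, taking 3 counts in sham as the floor. Vcam1, an adhesion molecule, stood at 120, 16.9 and 94.2 CPM and was at least 6.96-fold higher on day 2. Krt19 was at least 8.00-fold higher on day 2, but mostly in 1 cell, as given above. Havcr1 was in 13 of 43 day 2 members and thick limb cells held 25.0 CPM of it that day.

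Of 14 inflammatory mediators 7 passed the floors on day 2, 5 were at least 2-fold higher and 0 at least 2-fold lower, with a median log2 ratio of 2.67. Without the 1 member with Csf1r, 4 of 6 were at least 2-fold higher, with a median of 2.07. Phagocyte markers were higher too: 3 of the 7 passed, all 3 at least 2-fold higher with a median of 2.34, and their part in these values was not tested. Cxcl2, a neutrophil-attracting chemokine, stood at 0, 512, 225 and 5.23 CPM and was at least 29.6-fold higher on day 2. It was seen in 16 of 43 day 2 members, the member with Csf1r holding 59 of 170 UMIs, while 1 cell held 38 of the 40 UMIs on day 7. Thick limb cells held 0, 73.0, 29.0 and 14.8 CPM and endothelial cells 0, 20.8, 37.7 and 15.6 CPM of Cxcl2. These levels were below members on day 2 and above them after reversal, though the reversed members held only 1 UMI of Cxcl2. On day 7 they were below members only through the 1 cell with 38 UMIs. Cxcl1, of the same family, stood at 0, 150, 141 and 52.3 CPM, and Ccl2, which attracts monocytes, at 0, 135, 33.8 and 0 CPM. Cxcl1 was seen in 4 cells on day 2 and 3 on day 7, and thick limb and endothelial cells held at most 21.7 CPM of it. The member with Csf1r held 42 of the 45 Ccl2 UMIs of day 2, without which Ccl2 stood at 9.12 CPM, while endothelial cells held 166 CPM and thick limb cells 3.95 CPM that day. Nfkbia, an inhibitor and target of NF-kB, stood at 75.0, 232, 462 and 487 CPM and was higher after reversal than in sham by a log2 ratio of 2.55 (1.77 to 3.37), being with Cxcl16 one of the 2 mediators that passed the floors there.

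Serpina10 and Defb1 were, with Lcn2, Cxcl2 and Ccl12, the 5 largest increases on day 2. Serpina10, a protease inhibitor of the coagulation cascade, stood at 0, 816, 468 and 136 CPM, in 0, 29, 14 and 5 members, and was at least 47.1-fold higher on day 2 than in sham. Thick limb cells held 0, 30.9, 52.9 and 43.3 CPM of Serpina10 and endothelial cells at most 7.66 CPM. On day 2 it was at 1258 CPM in Fst cells, 241 in Aqp1 cells and 889 in cells with neither. Defb1, a defensin peptide, stood at 5.77, 527, 304 and 188 CPM in members, but thick limb cells held 347 to 1502 CPM and endothelial cells 131 to 306 CPM of it. The chemokine gene Ccl12 stood at 0, 199, 39.5 and 5.23 CPM, with 61 of its 66 day 2 UMIs in the member with Csf1r and 15.2 CPM without it. The 5 largest decreases were Kap, Lypd2, Akr1c21, Miox and Acsm2. Kap, an androgen-regulated gene of proximal tubules, was also lower in cells that should lack it: 2612, 63.2, 163 and 497 CPM in members, 1663, 224, 648 and 861 CPM in endothelial cells. In members, 1 sham cell held 247 of its 453 UMIs, and without the cells with at least 100 proximal tubule UMIs the day 2 ratio of Kap went from −5.16 to −4.14. The part of free RNA in Akr1c21, Miox and Acsm2 was not tested.

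**Figure D3:**
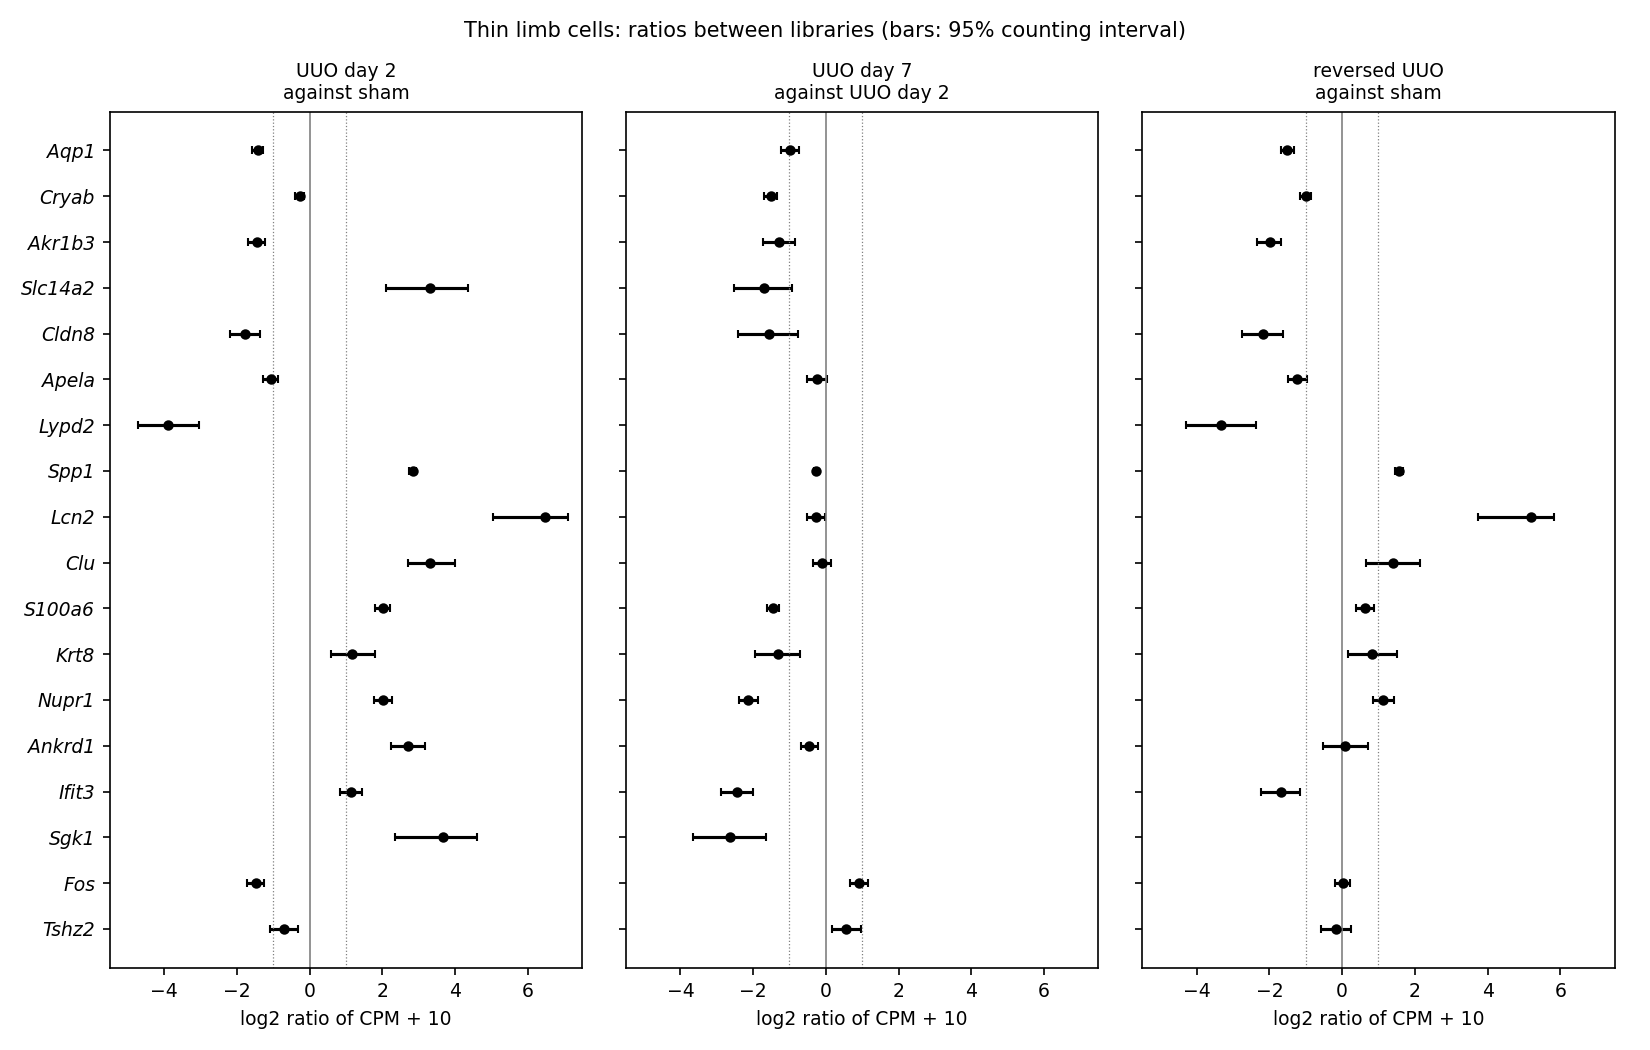
Log2 ratios of CPM + 10 between libraries for 18 genes of thin limb cells, with 95% counting intervals, dotted lines at 2-fold and the day 7 panel without collagen cells; genes below the floors are left blank. Lcn2 and Spp1 lie to the right on day 2 at 6.47 and 2.84, Aqp1 and Lypd2 to the left at −1.42 and −3.91, and after reversal both pairs keep their side of sham.

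Nupr1, Ankrd1, Sgk1 and Ifit3 were each at least 2-fold higher on day 2 than in sham. Nupr1, a small stress-induced chromatin protein, stood at 854, 3461, 783 and 1889 CPM, with a log2 ratio of 2.01 (1.76 to 2.26) for day 2 against sham and −2.13 (−2.39 to −1.88) for day 7 against day 2. After reversal 1 cell held 245 of its 361 UMIs, and without the top cell of each library the ratio of reversed to sham went from 1.14 to −0.036. Ankrd1 stood at 231, 1556, 1133 and 246 CPM, with log2 ratios of 2.70 (2.25 to 3.18) for day 2 against sham, −2.16 (−2.63 to −1.71) for reversed against day 7 and 0.09 (−0.52 to 0.71) for reversed against sham. On day 7, 1 cell held 132 of the 201 Ankrd1 UMIs, and day 7 was above day 2 by 0.47 among members with at least 2 rule genes. Sgk1, a kinase that governs sodium transport, stood at 11.5, 262, 33.8 and 26.2 CPM, in 26 of 43 members on day 2 and 1 of 36 in sham, while endothelial cells held most of it in sham (1224, 563, 347 and 482 CPM). Ifit3 was higher on day 2 by a log2 ratio of 1.15 (0.85 to 1.45), then lower on day 7 by −2.43 (−2.88 to −2.01), and lower after reversal than in sham by −1.69 (−2.24 to −1.16).

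Immediate-early genes, which respond to stress within minutes and also to tissue digestion, differed in both directions on day 2. Of 16 immediate-early and heat shock genes 14 passed the floors, 2 (Dusp1 and Ier3) were at least 2-fold higher and 4 (Jun, Fosb, Zfp36 and Fos) at least 2-fold lower, with a median of −0.84. Dusp1 was not past 2-fold without the member with Csf1r. Fos stood at 2226, 788, 1494 and 2255 CPM, in 10, 16, 14 and 13 members, and was at 18.9 to 266 CPM in thick limb cells. In sham it was at 3409 CPM in cells with neither Fst nor Aqp1, 1984 CPM in Aqp1 cells and 0 in the 7 Fst cells. The heat shock gene Hspa1a stood at 715, 385, 214 and 147 CPM. What part digestion had in these values was not tested.

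Of 20 matrix and TGF-beta genes 9 passed the floors on day 2, 0 were at least 2-fold higher and 5 at least 2-fold lower, with a median of −1.45. Cyr61, a matrix-bound signalling protein, stood at 363, 105, 327 and 94.2 CPM. Timp3, an inhibitor of matrix proteases, stood at 940, 337, 321 and 748 CPM. Pdgfa, a growth factor, stood at 265, 69.2, 113 and 209 CPM and Lamb1, a laminin chain, at 294, 99.3, 141 and 157 CPM. Day 2 was the lowest library for Pdgfa and Lamb1, and for Timp3 both obstructed libraries lay near one another. Of 16 repair and nephron development genes 12 passed, with 1 (Prom1) at least 2-fold higher and 1 (Lgr4) at least 2-fold lower. Prom1, a membrane protein of epithelial progenitors, stood at 40.4, 223, 186 and 147 CPM, and Lgr4, a Wnt-pathway receptor, at 179, 54.2, 84.5 and 136 CPM.

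Genes that act with the rule genes were mostly too low to read. In the day 2 comparison 3 of 16 activin and follistatin genes, 2 of 19 Eph and ephrin genes, 6 of 20 sphingolipid genes and 2 of 15 NAD genes passed the floors, rule genes included. Inhba, the activin subunit that follistatin binds, was at 0 in members of every library. Cd38, the relative of Bst1, was at 0, 0, 5.64 and 0 CPM, against 262 to 350 CPM in endothelial cells. Sptssa, the other small subunit beside Sptssb, stood at 161, 102, 107 and 131 CPM.

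On day 7 members held less Cryab, Slc14a2, Nupr1, Ifit3 and Sgk1 than on day 2, and more Col4a1 and Edn1. Over all 29 day 7 members, 10.1% of 3230 genes were at least 2-fold higher and 7.83% at least 2-fold lower, the 5 largest increases being Col3a1, Col1a2, Col1a1, Sparc and Dcn, which came from the collagen cells. Without these cells 4.35% of 2576 genes were at least 2-fold higher and 5.94% at least 2-fold lower. Of the 7 descending limb genes that passed then, 0 were at least 2-fold higher and 3 (Akr1b3, Cryab and Slc14a2) at least 2-fold lower, with a median of −0.99 against −0.13 for all genes. Over all 29 members 6 of 7 were at least 2-fold lower, with a median of −1.66. Of 13 injury genes 0 were at least 2-fold higher and 4 (S100a6, Vcam1, Anxa2 and Krt8) at least 2-fold lower, while Spp1, Lcn2 and Clu differed by −0.27, −0.27 and −0.11. Over all 29 members 6 of 14 were at least 2-fold lower and 1, Vim, at least 2-fold higher.

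The 5 largest increases on day 7 without collagen cells were Apoe, Irgm1, C1qa, Ctla2a and Nfkbiz, and the 5 largest decreases were Krt15, Sult1d1, Bcat1, Krt23 and Sgk1. Nfkbiz, a regulator of NF-kB, stood at 54.2 CPM on day 2 and 428 on day 7. Irgm1, an interferon-induced GTPase, stood at 9.03 and 158 CPM. Sult1d1, a sulfotransferase, stood at 229 and 16.9 CPM and Bcat1, an amino acid transaminase, at 117 and 5.64 CPM. Col4a1, a basement membrane collagen chain, stood at 75.0, 87.3, 400 and 246 CPM, higher on day 7 than day 2 by a log2 ratio of 2.08 (1.48 to 2.69) and present in 20 of 22 cells. Endothelial cells held 231, 310, 743 and 596 CPM of Col4a1, with day 7 the highest there too. Edn1, the endothelin 1 precursor, stood at 11.5, 51.2, 276 and 26.2 CPM and was in 15 of 22 day 7 members. Levels of Edn1 in other classes are not given here. The part of free RNA in the Col4a1 and Edn1 values was not tested.

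Cd74 and C1qa, genes of antigen presentation and phagocytes, were highest on day 7 in members and in thick limb cells. Endothelial cells also had their highest Cd74 level on day 7. Cd74, the chaperone of MHC class II, stood at 63.4, 785, 1736 and 686 CPM in members, 69.7, 239, 1518 and 701 CPM in thick limb cells and 143, 245, 2445 and 994 CPM in endothelial cells. Without the member with Csf1r the day 2 level of members was 246 CPM, near that of both other classes. C1qa, a complement gene of macrophages, stood at 0, 36.1, 395 and 99.4 CPM in members and 5.81, 37.5, 296 and 92.9 CPM in thick limb cells. On day 7, 5 of 5 MHC class II genes that passed were at least 2-fold higher than on day 2, and after reversal 5 of 5 at least 2-fold lower than on day 7. All 7 phagocyte markers summed to 98.0, 611, 2260 and 822 CPM in members, against 2353 CPM on day 7 in endothelial cells, and their part in these values was not tested.

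After reversal, members stood between the obstructed and the sham state for some genes and not for others. Over all members 6.60% of 2741 genes were at least 2-fold higher than on day 7 and 9.38% at least 2-fold lower. Without collagen cells the shares were 4.32% and 2.96% of 1992 genes. Of 6 descending limb genes that passed, 1 (Pax2) was at least 2-fold higher and 0 at least 2-fold lower, with a median of 0.77 against 0.10 for all genes. Against all 29 day 7 members 5 of 6 (Pax8, Akr1b3, Aqp1, Cryab and Pax2) were at least 2-fold higher, with a median of 1.29. As a sum over cells, Aqp1 was higher than on day 7 by a log2 ratio of 0.90 (0.63 to 1.17). It was seen in only 6 of 20 reversed members, 1 of them with 127 UMIs, so the median reversed member held 0. On day 7 it was seen in 17 of all 29 members. Of 10 injury genes that passed, Lcn2, Spp1 and Clu were at least 2-fold lower, while Vim was at least 2-fold higher. Against all 29 day 7 members, 3 of 11 (Vcam1, Krt7 and Krt8) were at least 2-fold higher and 2 (Vim and Clu) at least 2-fold lower. Vim, an intermediate filament gene, turned with the collagen cells: its 25 reversed UMIs stood against 171 on day 7 with them (log2 ratio −1.99, −2.61 to −1.41) and 9 without them (1.21, 0.20 to 2.25). With the cells with Wt1 or Umod left out too, Vim was not among the values that changed sign.

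Spink1, Gstm2 and Umod were among the 5 largest increases after reversal, and the 5 largest decreases were Tmem252, Cxcl2, Edn1, Slc34a2 and Ctla2a. Of these, Cxcl2 rested on 1 day 7 cell, described above, that held nearly all of its 40 UMIs there. Umod stood at 461, 280, 214 and 1235 CPM, and 4 reversed cells held 211 of its 236 UMIs. Spink1, a trypsin inhibitor, stood at 50.7 CPM on day 7 and 471 after reversal; against all day 7 members its ratio of 2.52 was 1.09 without the cells with at least 100 proximal tubule UMIs. Tmem252, a membrane protein, stood at 11.5, 283, 180 and 0 CPM and was at least 11.5-fold lower after reversal than on day 7. Slc34a2, a phosphate transporter, stood at 231 CPM on day 7 and 20.9 after reversal. Tmem252, Edn1 and Slc34a2 were thus lower after reversal than on day 7.

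Against sham, reversed members still differed. Of 2059 genes 5.39% were at least 2-fold higher and 5.34% at least 2-fold lower. Of the 9 injury genes that passed, 4 (Lcn2, Spp1, Tmsb10 and Clu) were at least 2-fold higher and 0 at least 2-fold lower, with a median of 0.89 against −0.07 for all genes. Clu depended on few cells: its ratio of 1.39 was 0.26 when cells with collagen, Wt1 or Umod were left out. Of 6 descending limb genes 0 were at least 2-fold higher and 2 (Aqp1 and Akr1b3) at least 2-fold lower, with a median of −0.73. Akr1b3 was not past 2-fold without the top cells (−0.57). The Aqp1 ratio was −1.51 (−1.69 to −1.33), and −0.75 when the same cells were left out. Of 11 glycolysis genes that passed, 0 were at least 2-fold higher and 4 (Slc2a1, Ldha, Aldoa and Pfkl) at least 2-fold lower, with a median of −0.73.

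Slc2a1, the glucose transporter GLUT1, stood at 236, 160, 152 and 57.6 CPM, and Ldha, which makes lactate, at 1044, 719, 547 and 492 CPM. Aldoa, a glycolytic aldolase, stood at 1724, 1189, 1020 and 832 CPM. These 3 genes had their highest library in sham and their lowest after reversal. Lcn2, Lyz2, Sparc and Defb1 were among the 5 largest increases against sham, and the 5 largest decreases were Lypd2, Cyp4b1, Ppp1r1b, Kap and Id3. Id3 stood at 1528, 644, 214 and 288 CPM. Sparc rested on the 4 cells with Wt1, and 33 of the 36 Defb1 UMIs lay in 1 cell. Fewer cells of a kind among the members and less RNA per cell cannot be told apart in these sums.

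**Figure D4:**
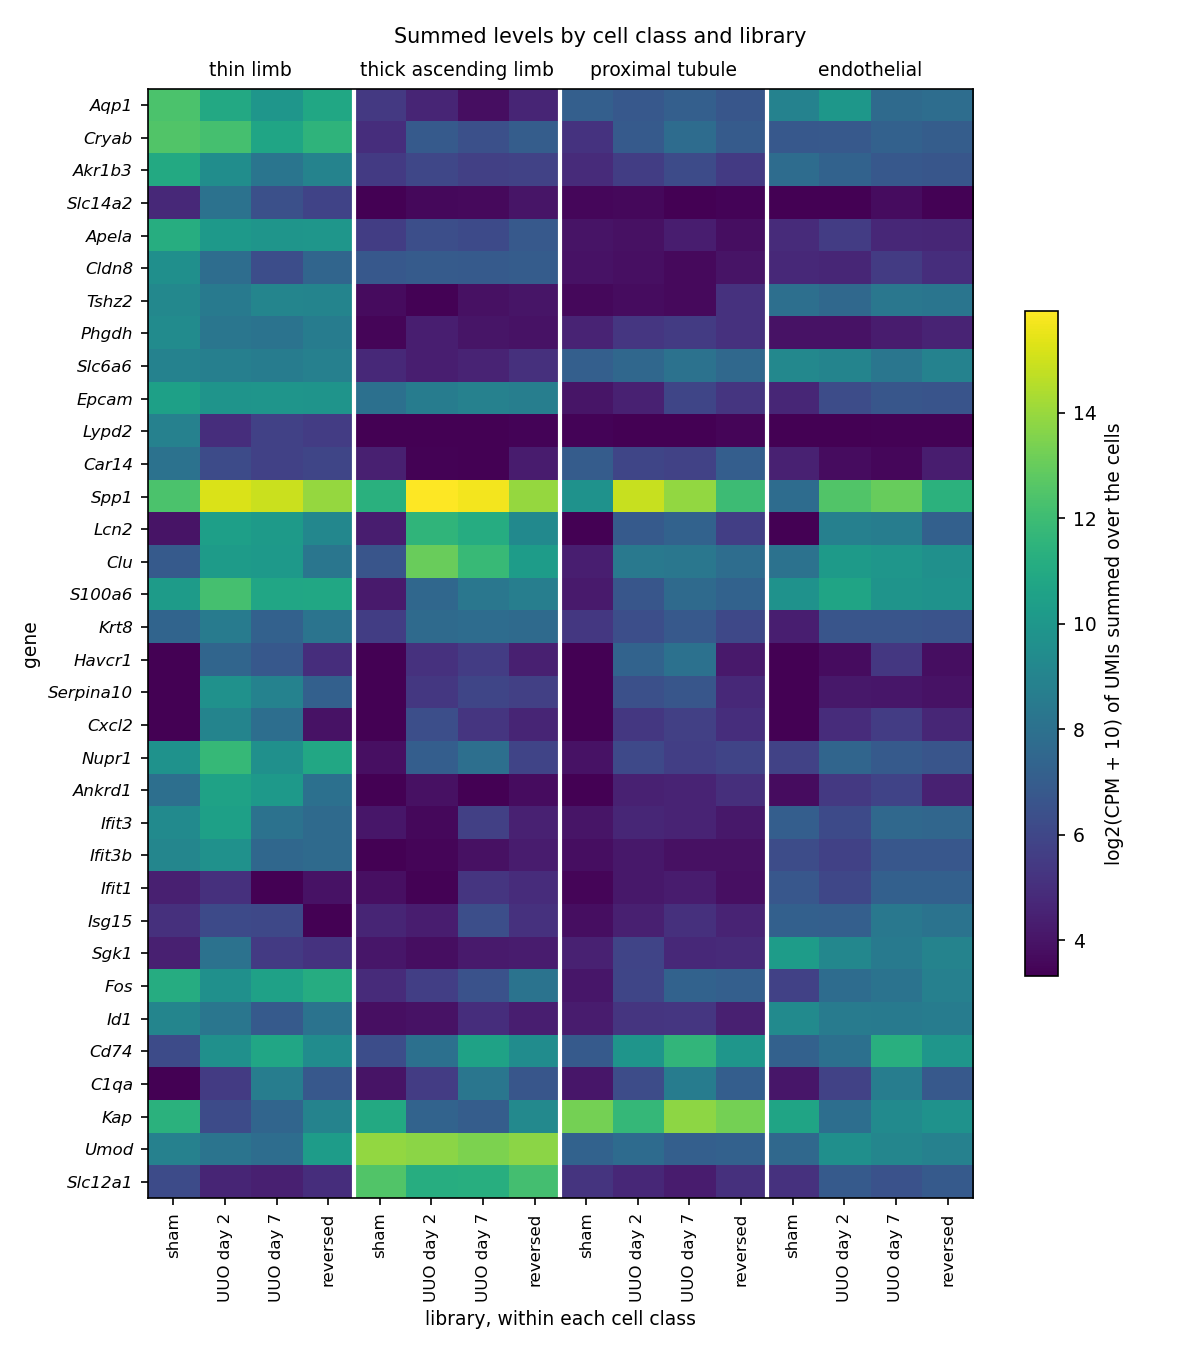
Heat map of log2(CPM + 10) from UMIs summed over the cells, for 34 genes (rows) in 4 cell classes and 4 libraries (columns), thin limb cells without collagen cells. Aqp1, Cryab, Apela, Ankrd1 and Ifit3 are bright in the thin limb columns and dark in the thick limb columns, while Spp1 and Lcn2 brighten on day 2 in both.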

How the data were processed

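The authors deposited UMI counts per gene and cell for 4 droplet libraries (28692 gene IDs). Cell Ranger and STAR and the builds GRCm38 and mm10 are named per the submitters' processing notes. Libraries used a 3′ droplet workflow, per the labels' protocols, so counts are not scaled by gene length. The members, gene lists and comparisons were chosen with earlier results of these data known.

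Cells were selected with Python 3.11.15, numpy 2.4.6, scipy 1.17.1 and pandas 2.3.3, drawn with matplotlib 3.10.9, and no clustering was used. UMIs of a class were added up within each library and given as CPM, the ratios with a pseudocount of 10 CPM and exact conditional binomial intervals. Comparator cells held at least 3 UMIs of Slc12a1 (thick limb), 3 of Slc34a1, Lrp2, Slc5a12 and Slc27a2 together (proximal tubule) or 2 of Egfl7 (endothelial), and at most 2 of the rule genes. Where a library had 0 UMIs of a gene, folds used 3 UMIs there. With 1 library per group there were no p-values. The ratio code was tested on simulated data. Doublets were kept, and Scrublet in scanpy 1.11.5 served as an alternative (0.8% per 1000 cells), because its automatic threshold marked only 1, 7, 3 and 25 cells. Shares of cells with a UMI were also taken after thinning to 1000 UMIs.

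Genes are named if they are in the fixed lists, are among the 5 largest changes in either direction of a comparison (mitochondrial, ribosomal and haemoglobin genes left out), or are among the 20 largest ratios against thick limb or proximal tubule cells. Others are said to be chosen after their values were seen. Some genes that this rule names are not reported here. Alternatives were the thresholds of the rule, the mitochondrial limit, doublet removal, the pseudocount, the floors, TMM factors (edgeR 4.0.16) and median-of-ratios factors (DESeq2 1.42.0, both in R 4.3.3), the mean of CPM over cells, and, added after seeing the data, leaving out members with collagen, Wt1, Umod, Csf1r, many proximal tubule UMIs or no Epcam, or the top cell of each gene. Sequences and motif counts came from RefSeq promoters on GRCm38.p6, and gene positions from the GENCODE annotation of GRCm38.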

Additional observations from a re-analysis of the deposited data

How the results depend on the processing

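No paired analysis was possible because each group is 1 library. The share of members moved beyond its interval as follows. With at least 2 of the 4 rule genes the 4 libraries had 0.509%, 1.09%, 0.337% and 0.340%. It was 5.09%, 2.77% and 0.965% in sham, day 2 and reversed cells with at most 20% mitochondrial UMIs. Cells thinned to 1000 UMIs, with the rule lowered to a sum of 2 at the same time, gave 1.04%, 0.360% and 0.216% on day 2, day 7 and after reversal. Ptprc-negative cells gave 2.93% and 1.99% on day 2 and day 7. On day 7 a sum of 2 gave 1.01% and a sum of 5 gave 0.405%, and leaving out cells with collagen, Wt1 or Umod gave 0.371% after reversal. Leaving out members with at least 5 proximal tubule UMIs left 1, 8, 13 and 1 cells (0.0254%, 0.362%, 0.292% and 0.0309%). Counts of genes at least 2-fold higher and lower were 683 and 1289 for day 2 against sham without floors (281 and 81 with TMM factors), 1497 and 630 for day 7 against day 2 without floors (112 and 153 without collagen cells), 1161 and 1191 for reversed against day 7 without floors (119 higher with TMM factors, 86 and 59 without collagen cells), and 1493 and 997 for reversed against sham without floors.

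Log2 ratios of the genes named in the report and list medians were followed through the alternatives over all members. Of those at least 2-fold, 42 of 3647 values changed sign, as follows, and the cause was not tested. Of those under 2-fold 279 of 2933 did, among them Cryab, day 2 against sham, at 0.049 without the top cells, and the descending limb median at 0.06 with TMM factors. For day 2 against sham, 1 changed sign, Apoe at −0.039 with at least 2 rule genes. For day 7 against day 2, at least 2 rule genes gave 0.75 for Cxcl2, 0.47 for Ankrd1, 0.42 for Ccl12 and 0.54 for Hspa1a. A sum of 5 gave 0.49 for Ccl12, 0.85 for Ccl2 and 1.63 for Krt19. The top cells left out gave 0.57, 0.83 and 0.82 for the same genes. Ccl12 and Ccl2 were at 0.80 and 1.05 without members lacking Epcam, and at 0.74 and 1.03 without the member with Csf1r. Without members that held at least 5 proximal tubule UMIs, on 8 day 2 cells, Ankrd1 was 0.53, Cd74 −1.38, Fosb −0.70, Id3 0.096, Krt19 3.27, Pax2 0.25, Pax8 0.075, Uncx 1.96 and Vim −0.032; too few sham and reversed cells were left for other values. For reversed against day 7, at least 2 rule genes gave −0.18 for Krt8, −2.46 for Fos, 0.91 for Sparc, −0.12 for Epha7, 1.11 for Vim, −2.23 for Zfp36 and −0.15 for the tight junction median. Leaving out cells with collagen, Wt1 or Umod gave −0.092 for Cldn4, −0.10 for Epha7, −0.25 for Umod and −0.0073 for the tight junction median. Leaving out collagen cells alone gave 2.39 for Sparc and 1.21 for Vim, and leaving out Umod cells alone −0.035 for Umod. For reversed against sham, Umod was −0.11 with at least 2 rule genes, −1.47 without Umod cells and −1.33 without cells with collagen, Wt1 or Umod, and Nupr1 was −0.036 without the top cell. Of the other values of single genes, 4718 stayed within their counting interval and 961 moved beyond it, and of list medians 795 and 64. Genes under 30 UMIs could not be read at this depth.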
